A study of Mus musculus with 38 samples.

Results

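Poised distal regions marked by Polycomb were taken from 30 histone ChIP-seq lists of mouse embryonic stem cells (mESCs). A poised distal region was a stretch of the H3K4me1 WT consensus, that is, bases called in at least 2 of 3 WT lists, on chromosomes 1 to 19, more than 5000 bp from any annotated transcription start site (TSS), with no H3K27ac WT consensus within 1000 bp. It was a member of the set described here if at least 1 bp of it lay in the H3K27me3 WT consensus. Of 71693 H3K4me1 consensus pieces, 35722 were distal, 15575 of those had no H3K27ac nearby, and 5351 of those carried H3K27me3, which is 7.46% of all pieces. The other 10224 poised pieces had no H3K27me3 and served as the nearest comparison. The WT calls of H3K4me1, H3K27ac and H3K27me3 chose the members, so the shares and counts of calls of these marks are descriptions without a test. Reads per region of H3K27me3 and H3K4me1 were fitted over all regions of a mark, and since the WT libraries of that fit also chose the members, its p-values are no independent support for the members.

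The cells were the mESC line ES-E14TG2a grown in medium with serum and LIF and collected at Timepoint 0h. The IkappBalpha+/+ cells (spelled IkappaBalpha+/+ for some marks), called wildtype and here WT, had received non-targeting guides, and the IkappBalpha-/- or IkappaBalpha-/- cells, called knock-out and here KO, had received guides to exon 1 of Nfkbia, the gene of the NF-κB inhibitor IκBα. Each genotype was represented by 3 clones grown from single sorted cells, with 1 library per mark and clone for H3K4me1, H3K27ac, H3K27me3, H3K4me3 and H3K9me3, so that differences between genotypes also contain differences between clones. Each genotype had 1 input library per set of marks. Histone marks at the Nfkbia promoter do not check the edit: H3K4me3 was called within 1000 bp of a Nfkbia TSS in 3 of 3 WT and 3 of 3 KO lists. The labelled cell type was checked on 8 mESC genes, of which 7 had H3K4me3 within 1000 bp of a TSS in 6 of 6 lists (Dppa5a had it in 1 of 6). H3K27me3 was called there in 6 of 6 lists for 1 of these 8 genes, Esrrb, and for all 15 markers of endoderm, trophectoderm, mesoderm, neuroectoderm and fibroblasts. Of these 15 markers 13 also had H3K4me3 in 6 of 6 lists, so H3K4me3 did not separate the cell types.

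Enhancers are distal elements that raise transcription of genes they contact. H3K4me1 marks them in active and inactive states, H3K27ac marks active ones, and H3K27me3 is laid down by Polycomb repressive complex 2 (PRC2), mainly at CpG-rich DNA near silent developmental genes. In mESCs, elements with H3K4me1 and H3K27me3 but no H3K27ac are called poised, since several of them become active when cells differentiate, for example along the neural lineage. The word is used more widely here, for distal H3K4me1 pieces without H3K27ac nearby, with or without H3K27me3. Only the members meet the narrower use, and the other poised pieces do not.

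The sequences below show the most CpG-rich 200 bp of 5 members (plus strand, RefSeq sequence of GRCm38), with each CpG in capitals. Neurod2 and Hoxb1 were nearest to the 2 members with the densest H3K27me3. The members nearest to Dstyk and Dzip1l lost H3K27me3 and gained H3K27ac in the KO, and the one nearest to Vrk1 lost H3K27me3 and H3K4me1. The Dzip1l member already had no H3K27me3 in WT replicate 1 and 4800 bp of H3K27ac in WT replicate 3. The Vrk1 member lay in a window with lower input in the KO (log2 −0.89), as described further on.
Neurod2, chr11:98314041-98314240: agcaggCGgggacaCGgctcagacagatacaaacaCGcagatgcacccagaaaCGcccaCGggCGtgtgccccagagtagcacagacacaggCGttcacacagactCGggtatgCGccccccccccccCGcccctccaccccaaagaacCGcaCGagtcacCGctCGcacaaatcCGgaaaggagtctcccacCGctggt
Hoxb1, chr11:96382551-96382750: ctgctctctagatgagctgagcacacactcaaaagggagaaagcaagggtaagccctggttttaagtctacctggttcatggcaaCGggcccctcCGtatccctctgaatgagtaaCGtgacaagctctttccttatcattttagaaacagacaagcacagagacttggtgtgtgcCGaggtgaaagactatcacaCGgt
Dstyk, chr1:132434141-132434340: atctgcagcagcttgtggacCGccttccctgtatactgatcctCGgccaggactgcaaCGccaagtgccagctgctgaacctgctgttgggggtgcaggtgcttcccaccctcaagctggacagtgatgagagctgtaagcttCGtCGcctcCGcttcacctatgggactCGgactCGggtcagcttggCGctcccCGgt
Dzip1l, chr9:99659471-99659670: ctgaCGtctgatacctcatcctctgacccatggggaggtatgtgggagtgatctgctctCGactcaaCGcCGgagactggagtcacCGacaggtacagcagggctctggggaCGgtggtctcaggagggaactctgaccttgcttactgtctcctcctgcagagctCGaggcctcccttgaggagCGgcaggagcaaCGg
Vrk1, chr12:106514461-106514660: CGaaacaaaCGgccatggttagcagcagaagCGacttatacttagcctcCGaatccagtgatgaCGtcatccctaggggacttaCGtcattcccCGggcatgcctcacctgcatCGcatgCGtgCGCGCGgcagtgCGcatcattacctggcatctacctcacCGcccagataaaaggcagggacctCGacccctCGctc
The windows held 16 CpG near Neurod2, 5 near Hoxb1, 10 near Dstyk, 9 near Dzip1l and 16 near Vrk1. The windows near Neurod2, Hoxb1 and Vrk1 lay between genes, and the members near Dstyk and Dzip1l overlapped exons. The Dstyk sequence was added after its values were seen.

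The members had more GC and CpG than other poised pieces. Their median length was 2800 bp (5th to 95th percentile 1200 to 6400 bp), against 2400 bp for poised pieces without H3K27me3. Median GC content was 48.3% and 44.3% in these classes, beside 41.9% over chromosomes 1 to 19. The median ratio of observed to expected CpG was 0.253 and 0.207. A 200 bp window with at least 12 CpG occurred in 933 members (17.4%) and in 349 of the other poised pieces (3.41%), although 19 members alone reached a ratio of 0.6 over their whole length. Distal pieces with both H3K27ac and H3K27me3 resembled the members in GC content (48.7%), while those with H3K27ac alone had 44.3%. Median GC content thus differed with the H3K27me3 call, with or without H3K27ac. This is a description, since all pieces came from the same lists.

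H3K27me3 covered most of a typical member. The WT consensus covered a median of 89.5% of its bases, and every base in 2440 members (45.6%). At the lower end, 162 members had a single 200 bp step of H3K27me3, and 196 poised pieces had none but lay within 200 bp of it. The members overlapped 5300 separate H3K27me3 stretches, of which 4829 held 1 member and 61 held 3 or more. A member could overlap more than 1 stretch and was then counted in each. Stretches with 5 members, the most in any, included 48400 bp at Heyl, Hpcal4 and Nt5c1a on chromosome 4 and 41600 bp at Cacna1i on chromosome 15. Of all members, 2881 (53.8%) were intergenic, 1395 (26.1%) intronic and 1075 (20.1%) overlapped an exon. The share in introns was 41.5% for other poised pieces.

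The marks that the rule did not use were sparse over the members. H3K4me3, the mark of active and bivalent promoters, was called over 3.14%, 2.95% and 3.79% of members in WT replicates 1 to 3, and over 2.41%, 3.35% and 3.16% in KO replicates 1 to 3. The genotypes overlapped, and the difference of −0.32 points had p = 0.6 (two-sided exact permutation test, for which 3 against 3 libraries allow no p below 0.1). Within each of the 6 libraries H3K4me3 was more frequent over members than over other poised pieces, where it lay between 0.137% and 0.303%. The mean difference was 2.90 points ± 0.400 (SD, n = 6 libraries) and had p = 0.03125 in a two-sided exact sign-flip permutation test, the smallest value 6 libraries allow. Adjusted over the 4 tests of this kind it was 0.0625 (exact test, Benjamini-Hochberg). A core of 64 members carried H3K4me3 in 6 of 6 libraries, beside 3 of the other poised pieces. Distal pieces with H3K27ac and H3K27me3 had H3K4me3 more often than the members, over a mean of 7.75% in the WT and 9.15% in the KO.

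H3K9me3, a mark of constitutive heterochromatin, was called over 4.49%, 4.20% and 4.07% of members in the WT and 4.47%, 2.93% and 3.79% in the KO. The genotypes overlapped here too (difference −0.52 points, exact permutation p = 0.3). It was lower over members than over other poised pieces in 6 of 6 libraries, by a mean of −0.53 points ± 0.194 (SD), with an exact sign-flip p of 0.03125, adjusted 0.0625. KO replicate 2 was lowest in both classes and also had the fewest H3K9me3 regions (35979, against 40345 to 52748) and the fewest reads in them (8.55 M, against 9.40 to 12.1 M). The part of this depth in the difference was not tested.

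**Figure D1:**
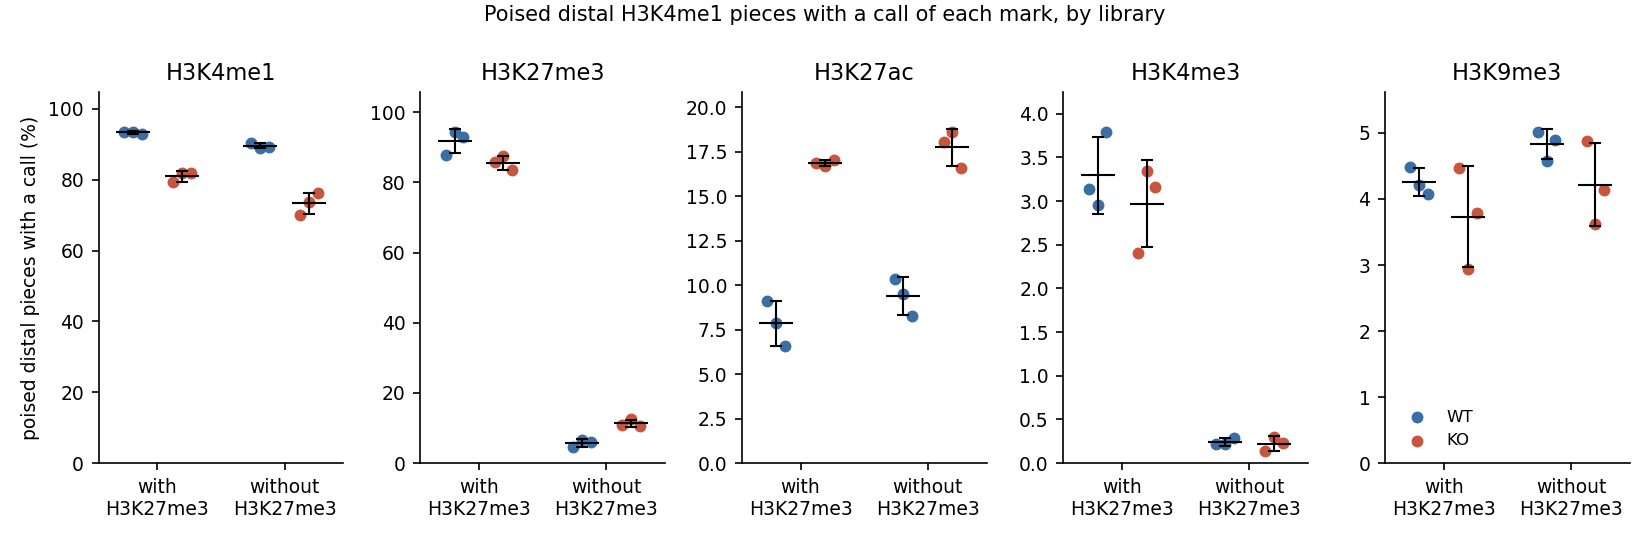
Share of poised distal H3K4me1 pieces with a call of each mark, for the 5351 pieces with H3K27me3 and the 10224 without. Points are libraries (3 WT in blue, 3 KO in red), and bars are the mean and SD. H3K4me3 lies near 3% of pieces with H3K27me3 and under 0.31% of those without, with WT and KO overlapping for H3K4me3 and H3K9me3.

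The nearest protein-coding genes of the members, by the 5′ end of the gene, numbered 2962 of 20807 (14.2%), at a median distance of 42428 bp. Of these genes, 1794 had 1 member and 166 had 5 or more. For 2669 members (49.9%) the promoter of the nearest gene (5000 bp upstream to 100 bp downstream) was bivalent in the WT, with H3K4me3 and H3K27me3 in at least 2 of 3 lists. The share was 40.3% for other poised pieces and 48.6% for distal pieces with H3K27ac and H3K27me3, and 24.9% of all protein-coding promoters were bivalent. A further 1220 members (22.8%) had a nearest promoter with H3K27me3 and no H3K4me3.

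The nearest genes were counted in fixed gene families. Homeobox genes outside the Hox clusters, which pattern the body and the nervous system, were nearest to 197 members (3.68%) and to 137 other poised pieces (1.34%), and 61 of the 114 annotated genes of the list had a member, while 55 had another poised piece. The Pax, Sox, Fox, Gata and T-box genes, lineage regulators of all germ layers, were nearest to 136 members (2.54%) against 78 other poised pieces (0.763%), at 40 of 68 genes. The bHLH lineage regulators, neurogenic factors among them, took 64 members (1.20%) against 38 (0.372%), at 29 of 60 genes. The Hox clusters themselves took 12 members at 8 of 39 genes, and 1 other poised piece. Ligands and antagonists of Wnt, Fgf, Bmp and hedgehog signalling took 39 members (0.729%) against 64 (0.626%). Cytosolic ribosomal protein genes, a list with housekeeping roles, took 18 members (0.336%) against 35 (0.342%), and naive pluripotency regulators took 20 (0.374%) against 36 (0.352%). Formative and primed epiblast genes took 12 members (0.224%) against 23 (0.225%). These shares depend on how much sequence surrounds each gene and were not tested.

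The gene nearest to the most members was Sox9, which directs cartilage and gonad development, with 20 members between 7824 and 583424 bp away. H3K27me3 was called over 16, 19 and 18 of these in the WT and over 18, 18 and 19 in the KO. H3K4me1 covered 18, 19 and 18 of them in the WT and 20, 20 and 19 in the KO. H3K27ac was called over 1, 2 and 0 in the WT and over 7, 3 and 4 in the KO, and H3K27me3 calls overlapped between genotypes. The rule itself keeps H3K27ac low in the WT, and the gain at 4 of the 20 members stands beside 15.6% of all pieces without H3K27ac nearby. Zfp536, a zinc finger gene of the nervous system, followed with 19 members, of which 15, 19 and 19 had H3K27me3 in the WT and 13, 18 and 15 in the KO. Foxl1, a forkhead gene of gut mesenchyme, had 14 members, and all 14 kept H3K27me3 in 3 of 3 KO lists. H3K27ac over the Foxl1 members went from 1, 2 and 0 calls in the WT to 7, 2 and 5 in the KO. KO replicate 2 equalled the highest WT library there, so the groups overlapped. All 14 lay in windows of chromosome 8 whose input differed between genotypes, as described further on. The other genes of this group were Gm26897 (12 members), 4930535I16Rik (11), Ajap1 (11), Ankrd55 (10) and Sdk2 (10), with H3K27me3 lost from at most 1 member each. Vrk1 (15 members) and Rapgef5 (9) differed from them and are described with chromosome 12.

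Elements of genes whose poised enhancers have been studied in mESCs were in the set. Lhx5 and Six3, homeobox genes of the anterior brain, had 6 and 5 members. Sox1, a neural progenitor gene, and Wnt8b, a Wnt ligand of the forebrain, had 1 each. The Sox1 member (chr8:12405601-12407000, in an intron) had 127, 130 and 113 H3K27me3 reads per kb of call in the WT and 115, 121 and 107 in the KO. The Wnt8b member (chr19:44499201-44503200) had 46.8, 58.0 and 64.4 in the WT and 67.2, 62.8 and 57.0 in the KO. Both pairs of densities overlapped, and neither member had H3K27ac in any of 6 lists. The densities are those of the whole H3K27me3 calls that overlap a member and were not scaled for depth. The whole H3K27me3 region around the Sox1 member (chr8:12378801-12419400), fitted with edgeR as described further on, was lower in the KO without overlap, with 1504, 1602 and 1652 CPM (reads scaled by TMM to the reads in tested regions) in the WT and 1252, 1252 and 1325 in the KO (log2 fold change −0.31, edgeR adjusted p 2.6e-13). For the Wnt8b region the log2 fold change was −0.0020 (edgeR adjusted p 0.979). None of these 13 members lost H3K27me3, beside 12.5% of all members. H3K27ac was gained at 2 Lhx5 members (15.4% of the 13, beside 15.2%). H3K4me1 was lost at 3 Six3 members (23.1% of the 13, beside 18.1%). The Lhx5 member at chr5:120408201-120411600 already had 1800 bp of H3K27ac in WT replicate 1. The Six3 members at chr17:85576001-85577000 and chr17:85641001-85643400 had 0 bp of H3K4me1 in WT replicate 2. The Six3 promoter had H3K4me3 in 3 of 3 WT and 0 of 3 KO lists. No member had Nfkbia as its nearest gene.

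The members with the densest H3K27me3 included those of Neurod2, Hoxb1, Evx2, Hoxc13 (2 members), Foxl2 and G430095P16Rik. Neurod2 is a neuronal bHLH factor, Hoxb1, Hoxc13 and Evx2 are homeobox genes of or beside the Hox clusters, and Foxl2 is an ovarian forkhead factor. The Neurod2 member (chr11:98310601-98315200) had 148, 152 and 144 H3K27me3 reads per kb in the WT and 147, 142 and 135 in the KO. The Hoxb1 member (chr11:96382201-96385200) had 135, 147 and 154 in the WT and 135, 139 and 136 in the KO. Evx2 (chr2:74646801-74651400) had 123, 143 and 147 in the WT and 124, 127 and 122 in the KO. In these 3 members the densities overlapped between genotypes. The densities are those of the whole H3K27me3 calls that overlap a member and were not scaled for depth. H3K27me3 reads in called regions numbered 8.91 to 9.97 M in the WT and 10.2 to 10.9 M in the KO. The merged H3K27me3 regions around these members were fitted in the same way, with TMM scaling. The region with the Hoxb1 member (chr11:96245401-96387800) was lower in the KO, with 7084, 7575 and 7718 CPM in the WT and 6615, 6556 and 6830 in the KO (log2 fold change −0.16, edgeR adjusted p 1.6e-05). The region shared by Evx2 and Hoxd1 was lower too (log2 fold change −0.17, edgeR adjusted p 8.1e-06), and that of Neurod2 had −0.06 (edgeR adjusted p 0.159). Both Hoxc13 members shared 1 H3K27me3 call per library and had 125, 140 and 134 in the WT and 131, 132 and 77.1 in the KO, where KO replicate 3 stood below the other 5 libraries. H3K27me3 was called over these 7 members in 6 of 6 lists. The median over the 3454 members called in all 6 libraries was 32.7 to 35.5 reads per kb in the WT and 33.4 to 35.5 in the KO.

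The question of the comparison was which members changed state without IκBα. In the KO, 3220 members (60.2%) kept the poised state, with H3K4me1 and H3K27me3 and no H3K27ac in at least 2 of 3 lists. Another 771 (14.4%) kept H3K27me3 alone, 674 (12.6%) kept both marks and gained H3K27ac, 368 (6.88%) kept H3K4me1 alone, and 121 (2.26%) had exchanged H3K27me3 for H3K27ac while keeping H3K4me1. None of the 3 marks was left over 178 (3.33%). Among the 814 members that gained H3K27ac, 689 thus still had H3K27me3.

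**Figure D2:**
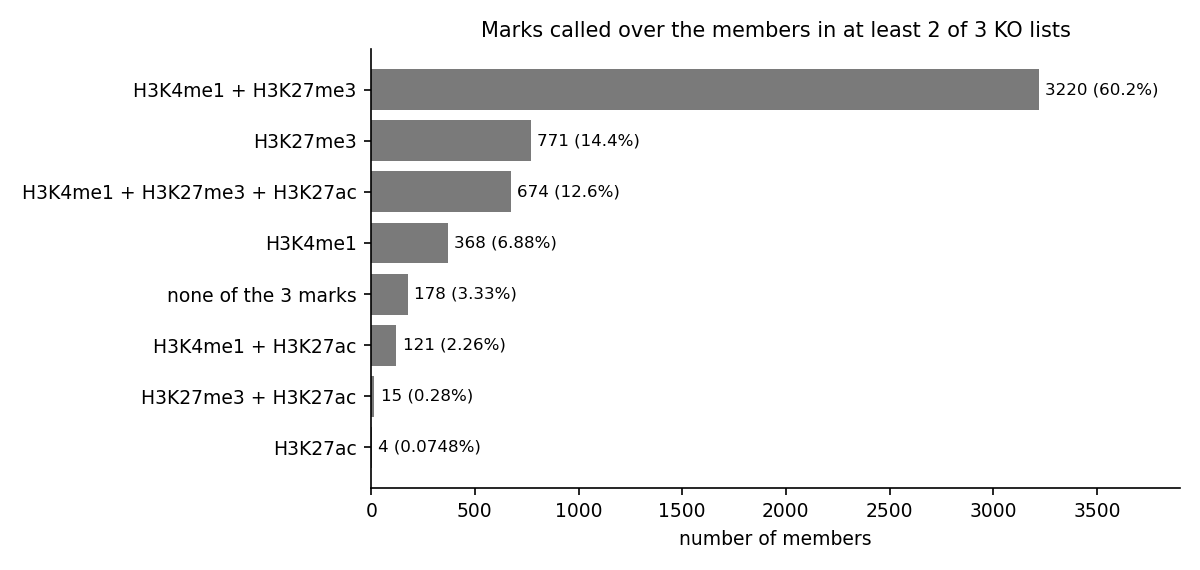
Number of members by the marks called over them in at least 2 of 3 KO lists. All 5351 had H3K4me1 and H3K27me3 in the WT consensus, and 3220 (60.2%) kept these marks without H3K27ac in the KO.

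H3K27me3 was lost from 671 members (12.5%), meaning no call in at least 2 of 3 KO lists. Over all H3K4me1 pieces with H3K27me3, near and far from a TSS, the same share was 12.5%, so the members' share was at the background. Distal pieces with H3K27ac and H3K27me3 lost it in 19.8%. The count depended on the rule. It was 466, 368 and 379 without WT replicates 1 to 3, where the consensus needed both remaining WT lists. It was 409, 460 and 396 without KO replicates 1 to 3, where the call had to be absent from both remaining KO lists. Leaving out a library thus also made the rule stricter. The count was 1298 where a call had to cover 50% of a member. In 297 members (5.55%) H3K27me3 was absent from 3 of 3 KO lists. Of the 4027 members with H3K27me3 in 3 of 3 WT lists, 231 (5.74%) lost it, and the other losses were at members already without a call in a WT list. By library, H3K27me3 was called over 87.9%, 94.4% and 93.0% of members in the WT and 85.6%, 87.6% and 83.6% in the KO. The covered length over members was 10.7, 12.3 and 12.3 Mb in the WT and 11.9, 11.8 and 11.4 Mb in the KO, so the lengths overlapped although the shares did not.

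Since the WT lists defined the members, the same shares were read in WT libraries left out of the choice. Members were chosen again on bases called in both of 2 WT clones and read in the clone left out. H3K27me3 was then absent from 13.7%, 6.99% and 8.51% of members in WT replicates 1, 2 and 3. In the KO libraries it was absent from 9.66% to 13.2%, 8.51% to 11.3% and 8.32% to 11.7% of the same members. The KO values lay below the left-out WT library for replicate 1, above it for replicate 2 and on both sides of it for replicate 3, so a loss of H3K27me3 beyond the spread between WT clones was not shown. WT replicate 1 had the fewest H3K27me3 reads in called regions, 8.91 M against 9.93 to 10.9 M in the other libraries. With the rule mirrored, 5268 members were chosen on the KO lists, and 920 of them (17.5%) had no H3K27me3 in the WT. Of the 5351 WT members, 3020 (56.4%) shared a base with a KO member.

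H3K27ac was gained by 814 members (15.2%), and by 412 (7.70%) in 3 of 3 KO lists. The share was 15.6% of all H3K4me1 pieces without H3K27ac within 1000 bp, and 15.9% of other poised pieces, so it was near the background. Of the 4122 members with H3K27ac in 0 of 3 WT lists, 407 (9.87%) gained it, and the other gains were at members already called in a WT list. In the WT lists H3K27ac was called over 9.12%, 7.87% and 6.56% of members, and in the KO over 16.9%, 16.7% and 17.1%. Left-out WT libraries had H3K27ac over 19.9%, 18.2% and 17.4% of members chosen without them. The KO libraries had it over 22.5% to 23.2%, 22.5% to 22.6% and 23.1% to 23.8%, above the left-out WT library in 9 of 9 readings. The 9 readings are of the same 3 KO libraries on overlapping sets of members, so they are not independent. They include the windows of shifted input described further on. H3K27ac reads in called regions numbered 22.9 to 25.1 M in the WT and 24.2 to 28.3 M in the KO. The WT lists held 51932 to 57645 H3K27ac regions and the KO lists 44977 to 47975, so KO lists had fewer regions. The part of depth and of region number in the gain was not tested. Read from the other side, 743 of the KO-defined members (14.1%) had H3K27ac in the WT.

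H3K4me1 was lost from 968 members (18.1%), against 9.96% of all H3K4me1 pieces and 25.7% of other poised pieces. It was called over 93.6%, 93.5% and 93.0% of members in the WT and over 79.3%, 81.9% and 81.9% in the KO. Left-out WT libraries lacked it over 6.39%, 6.36% and 6.95% of members and KO libraries over 11.9% to 15.0%, above the left-out library in 9 of 9 readings. These readings too are not independent and include the windows of shifted input. Of the KO-defined members, 652 (12.4%) had no H3K4me1 in the WT. The reads per kb where H3K4me1 was called in all 6 libraries (3443 members) had medians of 62.8 to 63.3 in the WT and 60.9 to 61.4 in the KO, which did not overlap. These densities were not scaled for depth. H3K4me1 reads in called regions numbered 35.8 to 36.0 M in the WT and 34.7 to 35.6 M in the KO.

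**Figure D3:**
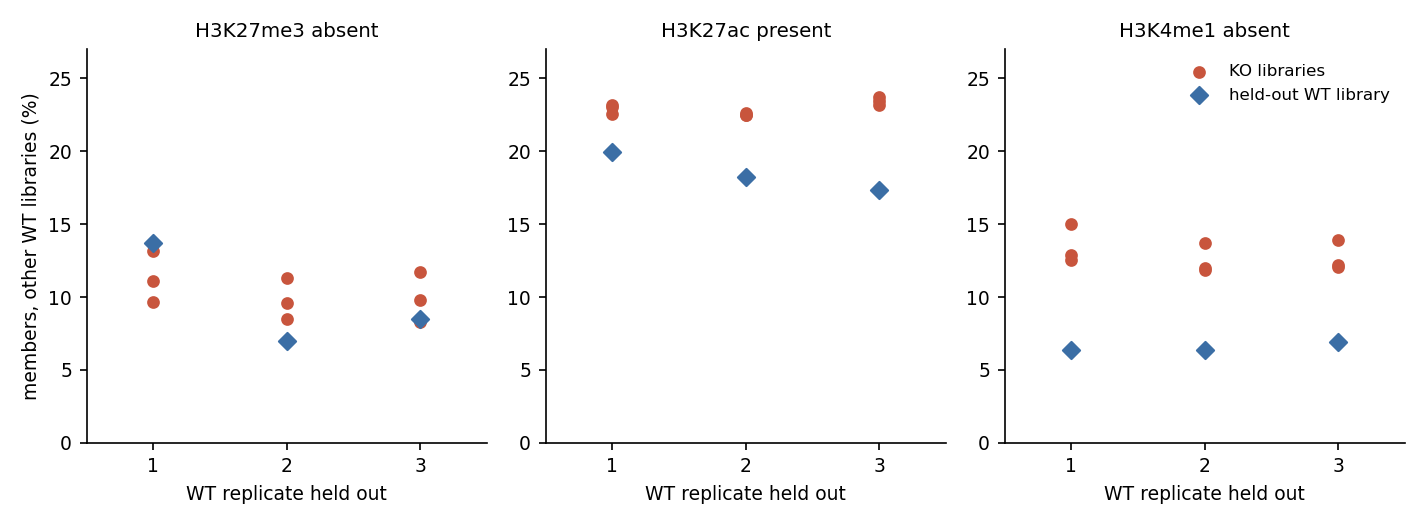
Members chosen on 2 WT clones, read in the WT library left out (blue diamonds) and in the 3 KO libraries (red points), as the percentage without H3K27me3, with H3K27ac or without H3K4me1. KO and left-out WT are interleaved for H3K27me3, while KO lies above it in 9 of 9 readings for H3K27ac and for H3K4me1. The 9 readings are of the same 3 KO libraries and are not independent.

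Losses of H3K27me3 fell with its coverage in the WT, and gains of H3K27ac fell with distance from WT H3K27ac. Both measures come from the WT calls that chose the members. H3K27me3 was lost from 33.5% of the 477 members with up to 25% of their bases in the WT consensus, from 12.6% of the 910 with 50% to 75%, and from 5.94% of the 2440 covered in full. At the edge of the rule, 36.4% of the 162 members with a single 200 bp step lost it. H3K27ac was gained by 36.4% of the 338 members lying 1000 to 2000 bp from WT H3K27ac, by 16.4% of the 1107 lying 5000 to 10000 bp away, and by 6.40% of the 703 beyond 50000 bp. Just outside the rule, among 223 pieces with H3K27ac 1 to 1000 bp away, the share was 42.6%. By distance from a TSS, 11.7% of members lost H3K27me3 at 5000 to 6000 bp and 14.4% beyond 50000 bp, and H3K27ac was gained by 18.8% and 13.4%. Among the 369 pieces up to 1000 bp nearer to a TSS than the rule allows, 12.5% lost H3K27me3 and 13.8% gained H3K27ac.

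**Figure D4:**
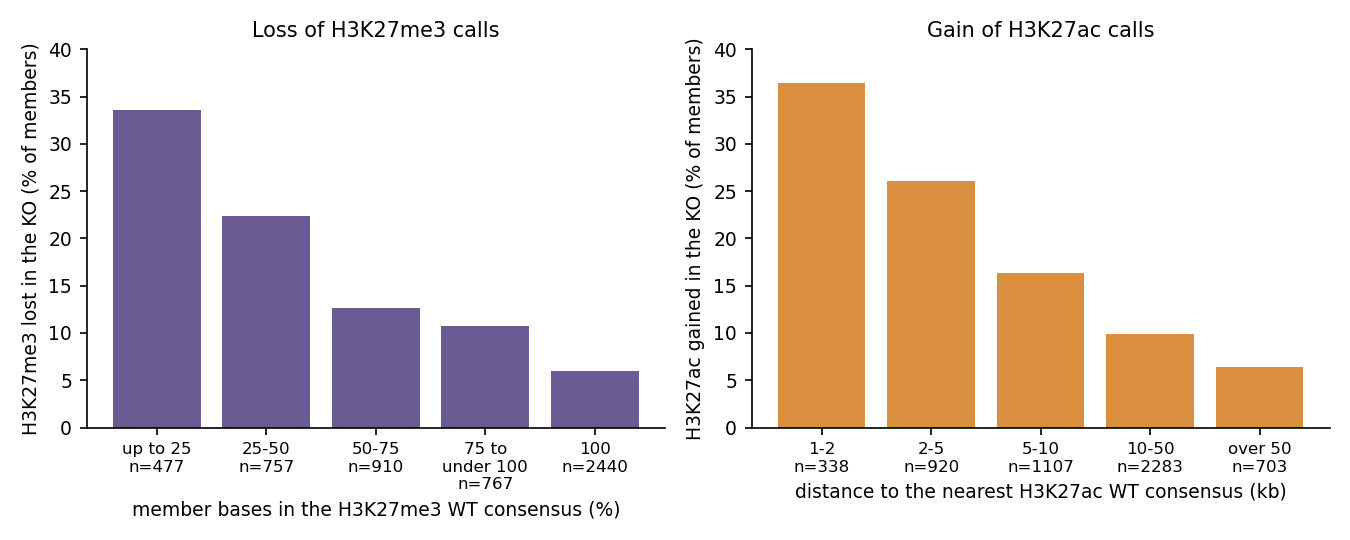
Left, members with H3K27me3 lost in at least 2 of 3 KO lists, by the share of their bases in the H3K27me3 WT consensus. Right, members with H3K27ac gained, by distance from the nearest H3K27ac WT consensus. Bars are percentages of the members in each bin (n below), falling from 33.5% to 5.94% on the left and from 36.4% to 6.40% on the right.

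Members that lost H3K27me3 gained H3K27ac in 125 of 671 cases (18.6%), against 689 of 4680 (14.7%) among those that kept it. H3K4me1 was lost from 27.1% of the former and 16.8% of the latter. Members that gained H3K27ac lost H3K4me1 in 19 of 814 cases (2.33%), against 20.9% of the rest. The promoter of the nearest gene had H3K27me3 in the WT for 429 members that lost it and for 3460 that kept it, and this promoter call was lost in the KO for 56 (13.1%) and 161 (4.65%) of them. Members are not independent here, since all 15 Vrk1 members share 1 promoter. Outside the windows of shifted input described further on, the promoter call was lost for 30 of 366 (8.20%) and 154 of 3192 (4.82%), H3K4me1 for 18.8% and 17.3% of members, and H3K27ac was gained by 20.3% and 13.2%.

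The exchange of H3K27me3 for H3K27ac was complete, 0 of 3 and 3 of 3 KO lists, in 25 members near 25 genes. Of all 5351 members, 297 (5.55%) had H3K27me3 in 0 of 3 KO lists and 412 (7.70%) had H3K27ac in 3 of 3. Whether 25 exceeds the overlap of unrelated sets of these sizes was not tested. The longest were near Dzip1l (cilium assembly), Inhbb (the activin βB subunit), Dstyk (a kinase), Cxcr4 (the CXCL12 receptor), Sash1, Crtac1, Gpr160, Egr3 (an immediate early transcription factor), Pou2f3 (a POU factor) and Atp5g3 (ATP synthase). At Dstyk (chr1:132431601-132437200) H3K27me3 covered 3200, 4800 and 4800 bp in the WT and 0 bp in all 3 KO lists. H3K27ac covered 0 bp in the 3 WT lists and 2600, 5400 and 3800 bp in the KO. H3K4me1 covered 3200, 5600 and 5600 bp in the WT and 5400, 5400 and 4000 bp in the KO, which overlapped. At Pou2f3 (chr9:43164001-43168400) H3K27me3 covered 2600, 2400 and 0 bp in the WT and none in the KO, and H3K27ac covered 0 bp in the WT and 4400, 4200 and 4400 bp in the KO. At Egr3 (chr14:70038001-70042600) WT replicate 2 already lacked H3K27me3 and WT replicate 1 had H3K27ac over 4400 bp. Such WT libraries were common among the 10: Dstyk and Atp5g3 were the members with H3K27me3 in 3 of 3 and H3K27ac in 0 of 3 WT lists, and each of the other 8 had a WT library that departed from this. Where WT lists called H3K27me3 over the 10, its density lay between 21.9 and 49.8 reads per kb.

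By gene family, loss of H3K27me3 affected 13 of 197 members of homeobox genes (6.60%), 12 of 136 of Pax, Sox, Fox, Gata and T-box genes (8.82%), 8 of 64 of bHLH genes (12.5%) and 0 of 12 of Hox genes, beside 12.5% overall. Among 20 members of naive pluripotency regulators 7 (35.0%) lost it, 2 of them near Sox2 and 2 near Tbx3, genes that also count in the Sox and T-box families. H3K27ac was gained by 15.2% of all members, by 23 members of homeobox genes (11.7%), by 5 of 20 members of naive pluripotency regulators (25.0%) and by 5 of 18 of ribosomal protein genes (27.8%). It was gained by 4 of 6 members near Bmp7, a bone morphogenetic protein. H3K4me1 was lost from 18.1% of all members and from 46 members of homeobox genes (23.4%), 4 of the 8 near Pitx1, a hindlimb and pituitary factor, included. These counts are small, their lists were chosen with results known, and no test was made.

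Parts of chromosomes 8, 12 and 2 had unequal input between the genotypes. In 1 Mb windows, input reads per called base were compared between KO and WT, and 420 members (7.85%) lay in windows that differed by more than 0.25 on the log2 scale for the input of either mark. On chromosome 12 there were 92, between positions 103157801 and 118812400, with a median of −0.91. On chromosome 8 there were 257, between 40191201 and 127027200, with a median of 0.49, and on chromosome 2 there were 52, with a median of 0.45. Among the 109 members in windows of lower KO input, 68 (62.4%) lost H3K27me3, 90 (82.6%) lost H3K4me1 and 1 gained H3K27ac. Among the 311 in windows of higher KO input, 17 (5.47%) lost H3K27me3 and 119 (38.3%) gained H3K27ac. Outside these windows, 586 of 4931 members (11.9%) lost H3K27me3, 694 (14.1%) gained H3K27ac and 863 (17.5%) lost H3K4me1. The part of the input level in the losses and gains was not tested.

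Vrk1, a chromatin kinase, and Rapgef5, a Rap exchange factor, lie in the chromosome 12 windows. All 15 Vrk1 members lost H3K27me3, which was called over 12, 14 and 14 of them in the WT and over 0, 1 and 0 in the KO. H3K4me1 went from 14, 15 and 13 to 0, 0 and 0, and H3K27ac from 3, 1 and 2 to 0, 0 and 0. Of 9 Rapgef5 members, 8, 7 and 9 had H3K27me3 in the WT and 2, 2 and 2 in the KO. H3K4me1 went from 9, 9 and 9 of them to 2, 2 and 3. Both marks were thus lower in all 3 KO libraries than in any WT library at these genes. Of the 4027 members with H3K27me3 in 3 of 3 WT lists, 97 (2.41%) had it in 0 of 3 KO lists. The same share over all pieces is not given here. Of the 97, 42 lay in windows of shifted input, and 40 had no H3K4me1 in any KO list. Among the 55 elsewhere, 40 kept H3K4me1 in 3 of 3 KO lists, 4 had it in none, and 8 had H3K27ac in 3 of 3. Over all 4931 members outside these windows, 332 (6.73%) had H3K27ac in 3 of 3 KO lists.

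Reads per region were compared where the call had nearly the same extent in all libraries. Calls of the 6 libraries of a mark were merged, and regions called in all 6 with the shortest covered length at least 0.8 of the longest were fitted with edgeR. Of 2025 such H3K27me3 regions, 530 held 844 members, and 235 of those 530 (44.3%) differed between genotypes at an adjusted p under 0.05, 111 higher and 124 lower in the KO. Over all tested H3K27me3 regions 35.1% differed, 15.8% higher and 19.3% lower. The length limit keeps out regions that shrank or were lost. The median absolute log2 fold change was 0.17 among the 235, against 0.59 among the 458 of 3550 called without the length limit and 0.38 among the 152 with covered length as an offset (43 higher, 109 lower). The median was −0.0018 over the 530 regions and −0.0060 over all tested regions. Outside the windows of shifted input 3 of 502 regions passed the threshold with more than a 1.5-fold change. Of 10959 H3K4me1 regions, 362 held 386 members and 128 of those (35.4%) differed, 60 higher and 68 lower, beside 43.4% of all regions (23.4% higher, 20.0% lower). Without TMM scaling the split was 41 higher and 106 lower, since the scaling moved the members' median from −0.07 to −0.03. With covered length as an offset, 162 of 3522 H3K4me1 regions with members differed, 157 higher and 5 lower, with a median of 0.05. Over all 44625 H3K4me1 regions that fit called 3328 higher and 344 lower, also with a median of 0.05. The direction of the H3K4me1 differences thus depended on the setting.

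The regions with the largest changes outside the windows of shifted input were as follows, with adjusted p-values from edgeR (quasi-likelihood, Benjamini-Hochberg). The H3K27me3 region with 3 members at Cdkn1c (chr7:143298001-143505400), an imprinted cell cycle inhibitor, was higher in the KO. It had 5148, 5197 and 5355 CPM in the WT and 7941, 8144 and 7944 in the KO. The log2 fold change was 0.61 ± 0.0329 (SE), and its edgeR adjusted p was 1.7e-47. Kcnq1, a potassium channel gene of the same imprinted domain, had 2069, 2046 and 2084 CPM in the WT and 3164, 3182 and 3211 in the KO (chr7:143124601-143218000, log2 fold change 0.62). The region at Cdkn2b (chr4:89264401-89316800), another cell cycle inhibitor, was lower, with 1357, 1392 and 1471 CPM in the WT and 931, 880 and 946 in the KO (log2 fold change −0.62, adjusted p 5.4e-37 by edgeR). In all 3 regions the genotypes did not overlap, and these windows had no shift of input. A region near Pdgfrb and Slc6a7 with 4 members followed at −0.53.

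In windows of shifted input the order was headed by Dio3 (1206, 1227 and 1205 CPM in the WT, 617, 615 and 597 in the KO, log2 fold change −0.99) and Dlk1 (1267, 1282 and 1297, then 749, 771 and 747), the ends of an imprinted domain on chromosome 12. Trim67 (log2 fold change 0.78) and Calb2 (0.63) on chromosome 8 were higher in the KO. The 4 largest H3K4me1 changes were all higher and all on chromosome 8, at Tenm3 (0.72), Irx3 (0.71), Zfp423 (0.64) and Adgre5 (0.61). Outside such windows, H3K4me1 was highest above the WT at Egr3, where it had 32.2, 34.3 and 32.1 CPM in the WT and 48.1, 46.6 and 48.0 in the KO (log2 fold change 0.53 ± 0.0507 SE, edgeR adjusted p 1.2e-10). The Egr3 member is also among the 25 with a complete exchange of H3K27me3 for H3K27ac. Akap11 (0.52) and Zdbf2 (0.48), an imprinted gene, rose as well, and Wnk2 fell by 0.49 on the log2 scale.

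**Figure D5:**
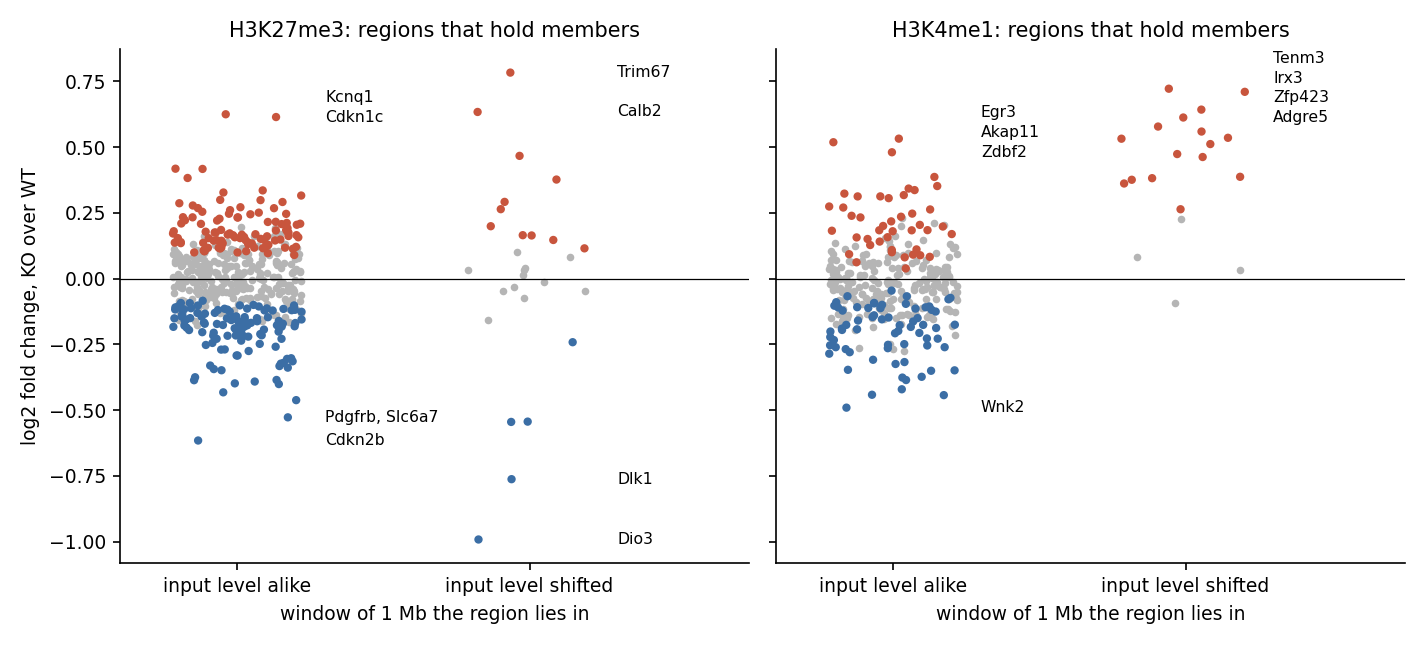
Log2 fold change of reads per region, KO over WT, for the 530 H3K27me3 and 362 H3K4me1 regions that hold members, split by whether their 1 Mb window had shifted input. Red and blue points passed an edgeR adjusted p under 0.05 as higher and lower, grey points did not, and horizontal scatter has no meaning. H3K27me3 reaches −0.99 at Dio3 and 0.78 at Trim67 in shifted windows, and 0.62 at Kcnq1 outside them.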

How the data were processed

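The authors deposited 1 list of enriched regions per library, made from single-end reads on GRCm38 (mm10). The submitters' processing notes name Trim Galore 0.6.6, Bowtie2 2.4.4, SAMtools 1.15, deepTools 3.5.1, SICER (epic2 in the methods) 0.0.52 and MACS2 2.2.7.1. Multimapping and low-quality alignments and blacklisted regions were removed by the authors, who also discarded the Drosophila spike-in reads of H3K27me3, so the values carry no absolute scale. The aligner for H3K27ac and the steps for H3K9me3 are not given in the sources used here. For H3K4me1, H3K27ac, H3K27me3 and H3K9me3 the deposited lists hold the counts of ChIP and input reads per region, a p-value, a false discovery rate, a score and a log2 fold change over input. For H3K4me3 the deposited MACS2 lists hold a score, a signal as fold enrichment and −log10 p-values and q-values, with no counts. Reads were given for called regions only, from 8.55 M (H3K9me3, KO replicate 2) to 36.0 M (H3K4me1, WT replicate 1), and total depth per library was not used here, so an absent call may be a matter of depth. The labels name 1 antibody (ab8895) for H3K4me1 and H3K27ac, and the methods section gives a different one for the latter.

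Members and gene lists were chosen with earlier results of these data known. Bases in at least 2 of 3 WT lists formed a consensus. TSS and genes were from GENCODE vM21. A call counted if it overlapped by 1 bp. Exact permutation tests compared shares between libraries. ChIP counts of merged regions were compared with edgeR 4.0.16 (quasi-likelihood, TMM, Benjamini-Hochberg), with DESeq2 1.42.0 as an alternative, after tests on simulated data. In these, 91.0% (H3K27me3, 2025 regions) and 94.0% (H3K4me1, 10959 regions) of changes of 0.3 on the log2 scale were recovered. Named regions were the 10 genes nearest to the most members, the 8 densest in H3K27me3 (1 of them is not reported here), the 10 longest that lost H3K27me3 and gained H3K27ac in 3 of 3 KO lists, the largest clean losses, the 3 leading genes per list, studied poised enhancers, and the 4 largest changes per fit. The same 4 outside windows of shifted input were added after seeing the data. Replicate numbers are those of the labels, which do not say whether same-numbered libraries of different marks came from the same clone. Inputs were used only through the counts in the lists.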

Additional observations from a re-analysis of the deposited data

Results flagged for a closer look

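The input columns of the lists, which no comparison of marks used, differed between the genotypes in windows that hold members on 8 chromosomes, with most of these members on 3 of them. Input reads per called base in 1 Mb windows had a median log2 of KO over WT of −0.91 over the 92 members concerned on chromosome 12, 0.49 over the 257 on chromosome 8 and 0.45 over the 52 on chromosome 2, where 1 member went the other way. The other 5 chromosomes held 1 to 8 such members each. Each genotype had 1 input library per mark set, so the input itself has no replicate. The ChIP libraries of the 3 KO clones moved together at Dio3 on chromosome 12 (617, 615 and 597 H3K27me3 CPM, against 1205 to 1227 in the WT).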

How the results depend on the processing

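The set numbered 4478 to 5351 members when any 1 replicate was left out. H3K27me3 was lost from 256 members with bases in 3 of 3 WT lists, 365 with 50% or more of the member in H3K27me3, 1298 where a call had to cover 50% of it, and 297 in 3 of 3 KO lists. Leaving out 1 library gave 368 to 466, namely 368 and 379 without WT replicates 2 and 3 and 409 and 396 without KO replicates 1 and 3. H3K27ac was gained by 451 members with no H3K27ac within 5000 bp, by 412 in 3 of 3 KO lists, and by 545 to 1048 with 1 library left out. H3K4me1 was lost from 383 with bases in 3 of 3 WT lists and from 516 to 699 with 1 library left out, namely 611, 516 and 535 without WT replicates 1 to 3 and 632 without KO replicate 1. Without 1 WT library the consensus needed both remaining lists, and without 1 KO library a call or its absence had to hold in both remaining lists. Where a call had to cover 50% of a member, the H3K9me3 difference between genotypes turned to 0.26 points (exact p = 0.2) and the H3K4me3 excess over other poised pieces fell to 0.0249 points (exact p = 0.125). Without WT replicate 3 the H3K4me3 difference between genotypes was 0.0726 points (lowest −0.66 with any 1 library left out), and the H3K9me3 one lay between −0.89 and −0.12. With 5 libraries the sign-flip test cannot go below an exact p of 0.0625, so the comparisons with other poised pieces passed 0.05 in none of these fits, while the differences stayed at 2.87 to 4.07 points (H3K4me3) and −0.61 to −0.50 points (H3K9me3). Calls among H3K27me3 regions with members numbered 458 of 3550 without the length limit (233 higher, 225 lower), 152 of 3550 with covered length as an offset (43 higher, 109 lower) and 187 to 235 with 1 library left out. Among H3K4me1 regions they numbered 84 by DESeq2, 667 of 3522 without the length limit, 162 with the offset (157 higher, 5 lower) and 106 to 113 with 1 library left out. With the replicate block the counts were 253 and 133. The numbers are not shown to pair the samples, since deviations of same-numbered libraries correlated by 0.11, 0.04 and 0.05 for H3K27me3 and by 0.02, −0.0026 and 0.01 for H3K4me1, and 3 of 3 and 2 of 3 numbers correlated best with their own. Regions outside windows of shifted input, an alternative chosen after seeing the data, gave 216 of 502 and 106 of 342 calls when fitted alone. The H3K4me3 excess was 4.67 points with bases in 3 of 3 WT lists. The H3K9me3 difference between genotypes was −0.33 points with those bases, −0.80 at a false discovery rate under 0.01 and −0.80 outside the windows, and the H3K4me3 one was −0.025 where a call had to cover 50%. The split of H3K27me3 calls was 124 higher and 115 lower without TMM and 118 and 98 outside the windows. The remaining counts of calls and members stayed within 1.5 times of their value.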
